A study of Homo sapiens with 24 samples.

Results

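The collagen gene family comprised 44 of the 60448 gene symbols in the deposited tables, each written as COL, a number, A and a number, and all 44 were protein-coding genes among 19236. A further 9 names that resemble this form without matching it were left out. RNA was sequenced from 24 libraries of BPH-1 and RWPE-1, which are immortalized, non-tumorigenic human prostate epithelial cell lines, in a study of how wild-type C-Raf dosage bears on prostate cancer metastasis. BPH-1 carries the large T antigen of a simian virus and was grown in serum-containing medium, whereas RWPE-1 carries papillomavirus genes and was grown in serum-free keratinocyte medium with epidermal growth factor and pituitary extract. The vector group held the empty lentiviral vector with its luciferase reporters (3 BPH-1 libraries and 1 RWPE-1 library). The C-Raf parental group held the same reporters with C-Raf overexpressed from a ubiquitin promoter (3 BPH-1 and 4 RWPE-1 libraries). The paper describes firefly and Gaussia luciferase in both cell lines, but titles carry the tag sGluc for BPH-1 vector and C-Raf parental libraries only. By title, BPH-1 parental and metastasis-derived libraries thus differ in this tag too. The metastasis-derived group (6 BPH-1 and 7 RWPE-1 libraries) was the C-Raf cells of tumors that grew after intracardiac injection into immunodeficient NSG mice, resected and returned to culture for about a week, so mouse cells of the host could have been carried along. Its lines were BPH-1 bone R069, R071, R072 and R074 and 2 libraries numbered R075, titled bone and thymus, whose treatment labels name the opposite sites, and RWPE-1 LN1A, LN1B, Spine, Spine2, Bone4, Bone5 and Bone6.

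Collagens are trimeric extracellular matrix proteins whose chains are folded in the endoplasmic reticulum, hydroxylated, secreted, trimmed and cross-linked. Fibrillar chains build the fibers of stroma and bone, type IV chains form the sheet of basement membranes, FACIT chains sit on fibril surfaces, type VI chains form beaded filaments, type VII forms the anchoring fibrils under basal epithelium, and transmembrane chains such as COL17A1 hold basal cells to their basement membrane at hemidesmosomes. In prostate glands, basal epithelial cells face a basement membrane and fibroblasts of the stroma make most fibrillar collagen.

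Total counts per library were 9035970 to 52851374, and coding counts were 20569270 to 41990730 in 21 deep libraries. The 3 shallow BPH-1 metastasis-derived libraries (R071, R074 and R075 titled bone) had 111164 to 464687 coding counts, since RN7SL1, the RNA of the signal recognition particle, took 93.29, 96.78 and 97.55% of their counts. In the deep BPH-1 metastasis-derived libraries R069, R072 and R075 titled thymus RN7SL1 took 13.11, 30.28 and 4.6%, and in all others at most 0.009318%. The shallow libraries entered no fit reported as a main value. BPH-1 parental and metastasis-derived libraries came in different tables, so stage and table cannot be told apart there, while RWPE-1 stages were spread over 2 tables. Epithelial identity was checked with 8 markers (EPCAM, CDH1, TP63 and keratins), and all 8 had counts in every deep library.

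Sequences upstream of the start site are shown for genes on which the results turn, namely the most abundant member (COL17A1), the member with the largest rise in CPM in BPH-1 metastasis-derived lines (COL7A1) and the space between the head-to-head pair COL4A5 and COL4A6. They are the non-exonic letters of the 250 bases upstream of a RefSeq start, GRCh38.p14, written 5′ to 3′ along the gene, and capitals mark CCAAT or its reverse ATTGG and TATAAA or its reverse TTTATA.
COL17A1, chr10:104085958-104086130, minus strand: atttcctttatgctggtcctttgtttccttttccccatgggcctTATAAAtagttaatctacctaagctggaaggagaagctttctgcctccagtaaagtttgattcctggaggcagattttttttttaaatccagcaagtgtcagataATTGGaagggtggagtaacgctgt
COL7A1, chr3:48595330-48595579, minus strand: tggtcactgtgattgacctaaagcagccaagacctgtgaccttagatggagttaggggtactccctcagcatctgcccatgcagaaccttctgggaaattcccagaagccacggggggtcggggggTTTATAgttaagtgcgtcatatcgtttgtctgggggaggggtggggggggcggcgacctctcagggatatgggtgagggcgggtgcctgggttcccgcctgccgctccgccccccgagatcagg
COL4A5, chrX:108439588-108439837, plus strand: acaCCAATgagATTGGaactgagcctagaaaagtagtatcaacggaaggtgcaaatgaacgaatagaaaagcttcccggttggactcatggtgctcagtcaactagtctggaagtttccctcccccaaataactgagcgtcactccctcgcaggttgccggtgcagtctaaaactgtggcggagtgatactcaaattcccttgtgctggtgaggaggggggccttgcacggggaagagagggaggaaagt
The COL17A1 stretch held TATAAA 201 bases and ATTGG 97 bases before the start, the COL7A1 stretch held TTTATA 119 bases before it, and the COL4A5 stretch held CCAAT and ATTGG 243 and 235 bases before it. Both COL4A5 boxes also lie upstream of COL4A6, 133 and 141 bases in the same order from its start on the other strand. Counted over the full 250 upstream bases, exonic letters included, 12 (27.3%) of 44 promoters of the 32 members found in RefSeq held a CCAAT box on either strand, against 11240 of 35116 promoters (32%), and 8 (18.2%) held TATAAA or its reverse, against 3763 (10.7%). A match is a run of letters and was not tested as a bound site.

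The collagens of these lines were dominated by epithelial members. COL17A1, the hemidesmosomal collagen (ENSG00000065618, GRCh38 chromosome 10, 104031286 to 104085957, minus strand), had the highest mean level per kilobase of exon in all 6 groups, at 175 CPM per kb (CPM are coding counts scaled to 1000000 after TMM normalization) in the RWPE-1 vector library, 286 ± 42.1 (SD, n = 4) in RWPE-1 C-Raf parental, 238 ± 43.4 (SD, n = 7) in RWPE-1 metastasis-derived, 96.5 ± 2.81 (SD, n = 3) in BPH-1 vector, 159 ± 4.38 (SD, n = 3) in BPH-1 C-Raf parental and 185 ± 43.7 (SD, n = 3) in deep BPH-1 metastasis-derived libraries. COL7A1, the anchoring fibril collagen, was second by group mean per kilobase in each group, at 19.2 CPM per kb in RWPE-1 vector, 36.4 ± 18.3 in RWPE-1 C-Raf parental and 20 ± 1.35 in BPH-1 vector, and it came nearest to COL17A1 in BPH-1 metastasis-derived libraries, at 144 ± 146 (SD, n = 3). The spread of COL7A1 there was as wide as its mean and COL7A1 reached 311 CPM per kb in 1 library, above the COL17A1 range of 153 to 235, so the order of these neighbors was not distinguishable. COL7A1 also overlapped COL4A2 in BPH-1 vector libraries, at 18.6 to 21.2 against 18.4 to 20 CPM per kb, and COL12A1 in RWPE-1 metastasis-derived libraries, at 11.6 to 67.5 against 8.63 to 22.2. Below them, COL12A1 and COL4A2 followed within each other's spread in RWPE-1 C-Raf parental libraries, at 12.8 ± 2.68 and 10.9 ± 2.49 CPM per kb, and COL4A2 exceeded COL12A1 in BPH-1 vector libraries, at 19 ± 0.866 against 10.5 ± 0.945.

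No member was at 0 in all 21 deep libraries, but most were scarce. Of the 44 members, 33 reached 1 CPM in any deep library, 16 reached a group mean of 10 CPM and 8 a group mean of 100 CPM. The 11 below 1 CPM throughout were COL1A2, COL2A1, COL4A3, COL6A5, COL9A1, COL11A1, COL19A1, COL23A1, COL24A1, COL26A1 and COL28A1, and COL3A1 was listed at 0 in every BPH-1 vector and C-Raf parental library. COL1A2, the partner chain of COL1A1 in type I collagen, therefore stayed below 1 CPM in libraries where COL1A1 ran from 7.36 to 67.6 CPM. The naming rule took 25 of the 33 members, and the remaining 8 peaked at 20.4 CPM for COL3A1, 3.72 for COL6A3, 1.68 for COL9A2, 1.12 for COL14A1, 2.34 for COL15A1 and 2.38 for COL25A1 in RWPE-1 metastasis-derived lines and at 1.24 for COL20A1 and 5.36 for COL21A1 in deep BPH-1 metastasis-derived lines. A single library held 15 to 23 members of at least 1 CPM. The 5 members COL6A5, COL9A1, COL11A1, COL19A1 and COL24A1 passed the filter on low counts in no comparison, and the number tested of 44 was 24 to 39.

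Collagens as a whole took 0.206 to 0.4239% of coding counts in deep libraries. COL17A1 supplied 34.94 to 36.1% of collagen counts in BPH-1 vector libraries, 52.52 to 52.68% in BPH-1 C-Raf parental libraries, and 37.94, 18.12 and 50.15% in metastasis-derived R069, R072 and R075 titled thymus. COL7A1 rose from 9.761 to 10.16% in BPH-1 C-Raf parental libraries to 27.99, 57.82 and 14.34% in those 3 lines. In RWPE-1, COL17A1 supplied 62.69% in the vector library, 58.43 to 68.47% in C-Raf parental and 52.43 to 63.07% in metastasis-derived libraries, so the ranges of the last groups overlapped.

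**Figure D1:**
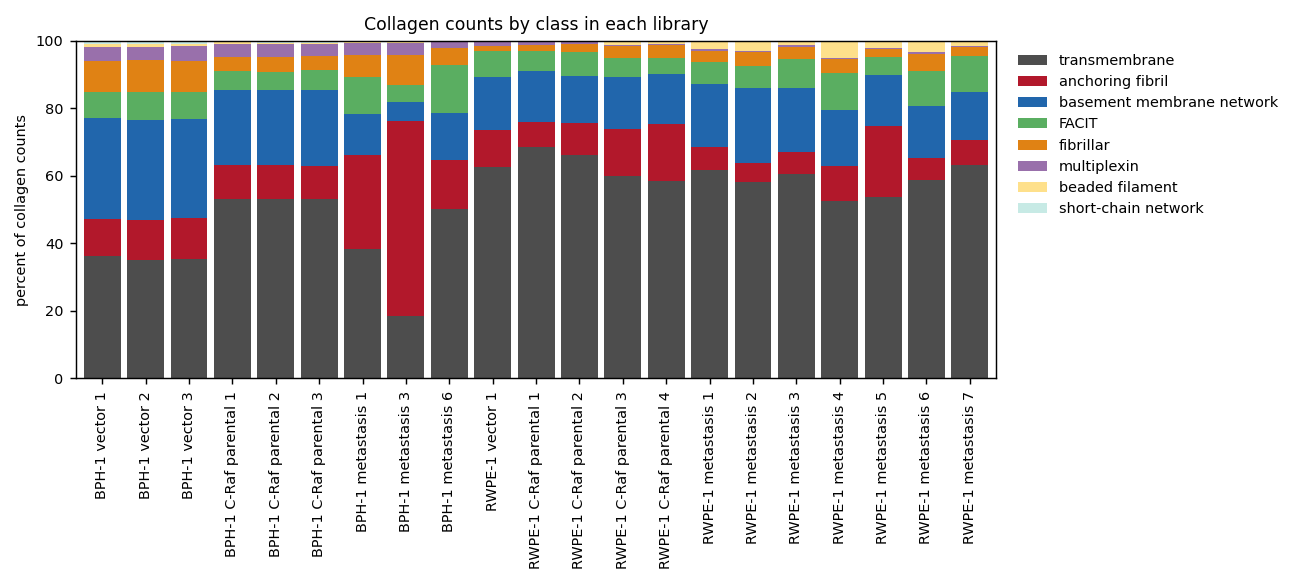
Percent of collagen counts (vertical axis) from each structural class in every deep library (horizontal axis, 1 bar per library, bars sum to 100%). The transmembrane class, nearly all COL17A1, is the largest segment in RWPE-1 libraries and widens from BPH-1 vector to C-Raf parental, and the anchoring fibril segment (COL7A1) reaches 57.82% in BPH-1 metastasis-derived R072.

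C-Raf overexpression in BPH-1 was compared with the empty vector first. Of 24 members tested, 17 fell, 3 rose and 4 did not pass, and the median log2 fold change was -0.62 for members against -0.002 for all genes. Fibrillar, FACIT and type VI chains were lower, while COL17A1, COL13A1 and COL4A6 were higher. Calls were made at adjusted p below 0.05 with the quasi-likelihood test of edgeR, adjusted by Benjamini-Hochberg over all 13229 genes tested, as for every adjusted p here. The 3 libraries of each group lay so close (biological coefficient of variation 2.43%) that 59.8% of all genes passed, 30.4% higher and 29.4% lower, so a call alone says little and the sizes are given. Of the 24 members, 22 had a mean of at least 10 counts a library in both groups, of which 3 rose, 15 fell and 4 did not pass, while COL9A3 and COL26A1 reached it in the vector group only. Nothing states that replicates came from separate cultures, so p-values measure only the spread between these libraries, which may be technical. This limit holds for the parental replicates in later comparisons too.

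Of 6 fibrillar chains tested, 5 fell. COL5A1, the main type V chain that sets fibril diameter, was at 78.2, 85 and 82.4 CPM in vector libraries and 14.7, 13.3 and 14.6 CPM in C-Raf libraries, a log2 fold change of -2.54 ± 0.05 (SE, adjusted p = 2.22e-26). COL5A2, its partner chain, was at 8.29, 10.4 and 8.54 CPM against 0.935, 0.997 and 0.788 CPM, a log2 fold change of -3.32 ± 0.14 (adjusted p = 6.7e-18). Both type V chains thus stood clear of the vector range in each C-Raf library. COL1A1, the major type I chain, went from 22.6, 24.7 and 22.9 CPM to 10.5, 10.7 and 10.4 CPM (log2 fold change -1.17 ± 0.06, adjusted p = 3.69e-16). COL11A2, a minor fibrillar chain, was at 2.35, 2.61 and 1.99 CPM and then 0.686, 0.779 and 0.651 CPM (-1.72 ± 0.20 on the log2 scale, adjusted p = 1.73e-08). COL5A3 was low in both groups, at 1.22 to 1.7 CPM and 0.788 to 0.935 CPM (log2 fold change -0.77 ± 0.21, adjusted p = 0.00236). COL27A1 did not pass, at 55.2, 61.5 and 58.2 CPM against 65.8, 61.7 and 59.4 CPM (log2 fold change 0.08 ± 0.04, adjusted p = 0.0915). Summed over the class, fibrillar collagens went from 169, 176 and 186 CPM to 86.9, 88.5 and 94 CPM (each group given from lowest to highest), with a median log2 fold change of -1.44 over the 6.

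Basement membrane chains moved less and not all one way. COL4A1 (ENSG00000187498), one of the ubiquitous type IV chains, was at 148, 158 and 146 CPM in vector and 115, 110.5 and 115 CPM in C-Raf libraries (log2 fold change -0.42 ± 0.03, adjusted p = 3.67e-12). COL4A2, which shares its trimer and its promoter region with COL4A1, was at 359, 386 and 355 CPM and then 316, 298 and 300.0 CPM (-0.28 ± 0.03, adjusted p = 4.61e-09). The vector and C-Raf libraries did not overlap for either. COL4A6 rose from 17.5, 17.6 and 16.7 CPM to 28.1, 28.4 and 28.7 CPM (log2 fold change 0.70 ± 0.05, adjusted p = 4.47e-13), and its head-to-head neighbor COL4A5 was at 31.7, 33.5 and 34.4 CPM and then 30.6, 29.4 and 31.4 CPM (-0.14 ± 0.04, adjusted p = 0.00795, not passed without vector replicate 3 at 0.0591 or without C-Raf replicate 2 at 0.0558). COL4A4 fell from 2.32, 2.55 and 2.84 CPM to 0.405, 0.312 and 0.377 CPM (-2.82 ± 0.22, adjusted p = 8.06e-12). Of 5 chains tested in this class, 1 rose and 4 fell, with a median log2 fold change of -0.28.

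Among the chains that bind fibrils and cells, 3 of 4 FACIT chains and both type VI chains tested fell. COL12A1, a FACIT chain, was at 123, 145 and 126 CPM in vector and 100.1, 93 and 102 CPM in C-Raf libraries (log2 fold change -0.43 ± 0.04, adjusted p = 2.07e-09). COL6A1, a type VI chain, was at 14.6, 15.2 and 13.7 CPM and then 7.51, 7.2 and 6.27 CPM (-1.07 ± 0.07, adjusted p = 7.03e-13). COL6A2, its neighbor and partner chain, was at 1.94, 1.94 and 1.75 CPM and then 0.779, 1.22 and 0.822 CPM (-1.01 ± 0.20, adjusted p = 7.36e-05). C-Raf libraries were below every vector library for these 3 chains. COL9A3 (ENSG00000092758, chromosome 20, 62816244 to 62841159, plus strand), a type IX chain of cartilage, was near the limit at 0.561, 0.849 and 0.955 CPM against 0.312, 0.249 and 0.137 CPM (-1.74 ± 0.35 on the log2 scale), and it was tested only through its vector counts. COL16A1 differed by -0.14 ± 0.06 on the log2 scale (adjusted p = 0.0336) with overlapping ranges, 21.5 to 25.2 and 20.3 to 22.1 CPM, and lost its call without vector replicate 2 (0.283), C-Raf replicate 2 (0.112) or C-Raf replicate 3 (0.129). COL8A1, a short-chain network collagen, was at 15.9 to 16.9 CPM in vector and 10.5 to 11.7 CPM in C-Raf libraries (-0.57 ± 0.06, adjusted p = 7.98e-09), and COL8A2 was at 0.928 to 1.43 CPM and 0.446 to 0.779 CPM (-0.85 ± 0.25, adjusted p = 0.00451).

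Both transmembrane collagens tested rose. COL17A1 was at 676, 704 and 666 CPM in vector and 1159, 1100.0 and 1112 CPM in C-Raf libraries, a log2 fold change of 0.70 ± 0.03 (adjusted p = 1.11e-18). COL13A1, a transmembrane collagen of cell adhesion sites, was at 2.96, 3.46 and 3.37 CPM and then 9.85, 9.75 and 10.1 CPM (1.59 ± 0.09, adjusted p = 1.19e-14). No C-Raf library overlapped the vector range for either. COL7A1, at 206, 235 and 224 CPM against 224, 211 and 206 CPM, did not pass (log2 fold change -0.07 ± 0.04, adjusted p = 0.1), nor did COL18A1, the multiplexin that gives rise to endostatin, at 78.9, 82 and 80.8 CPM against 85.8, 82 and 77.7 CPM.

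The enzymes and receptors around collagen were counted from lists, beside the 30.4% of all genes higher and 29.4% lower. Of 19 chaperones and modifying enzymes tested, 5 rose, 10 fell and 4 did not pass, with a median log2 fold change of -0.1. Of 11 processing and cross-linking enzymes 2 rose, 6 fell and 3 did not pass, with a median of -0.18, and of 6 receptors 2 rose, 2 fell and 2 did not pass. LOXL2, a lysyl oxidase that cross-links collagen, was at 33.4, 33.4 and 32.5 CPM in vector and 15.5, 15.1 and 15.2 CPM in C-Raf libraries (log2 fold change -1.14 ± 0.05, adjusted p = 4.61e-18). ITGA2, the α2 chain of a collagen-binding integrin, was at 97.1, 108 and 93.4 CPM and then 242, 226 and 241 CPM (1.23 ± 0.04, adjusted p = 5.79e-21). MRC2, an endocytic collagen receptor, was at 24.3, 25.5 and 23.7 CPM and then 8.29, 7.17 and 7.67 CPM (-1.68 ± 0.06, adjusted p = 3.65e-19). P3H2, a prolyl 3-hydroxylase, fell by 0.74 ± 0.03 on the log2 scale (adjusted p = 7.01e-18).

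Of 12 stromal fibroblast markers, 6 were tested, of which 4 fell and 2 rose. PDGFRB fell by 1.15, FBLN1 by 1.26 and FAP by 3.02 on the log2 scale, and DCN fell to 0 in the C-Raf libraries, while MFAP5 rose by 0.54 and TWIST2 by 1.00. The 12 summed to 96.25 to 99.8 CPM in vector and 70.59 to 76.96 CPM in C-Raf libraries. POSTN was at 0 in all BPH-1 libraries, and 7 to 9 of the 12 markers had counts in vector and 6 to 7 in C-Raf libraries. The epithelial markers summed to 5914 to 6120 CPM and 5928 to 6089 CPM. The part of any other cell type in the collagen values was not tested, and fewer cells of a type and less RNA per cell cannot be told apart in bulk samples.

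**Figure D2:**
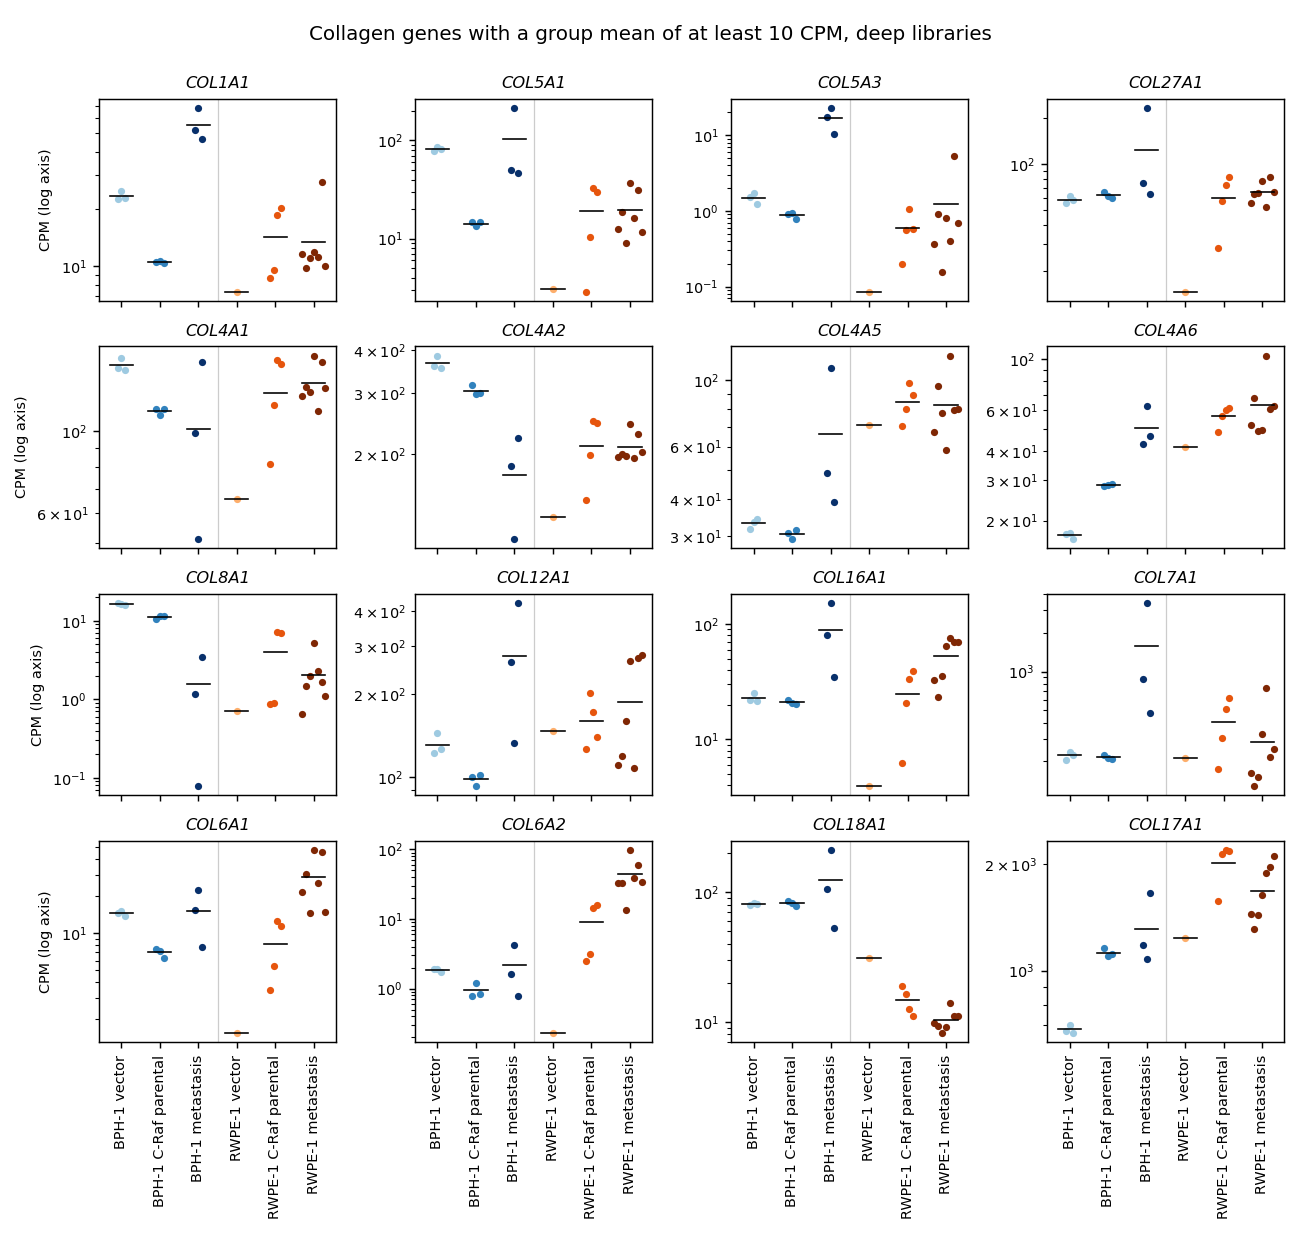
CPM (log axis) of the 16 collagen genes with a group mean of at least 10 CPM, in the 6 cell line and stage groups (horizontal axis), 1 point per deep library and a bar at the group mean. COL17A1 lies between 666 and 2192 CPM over the groups, COL5A1 drops from 78.2 to 85 CPM in BPH-1 vector to 13.3 to 14.7 CPM with C-Raf, and COL7A1 reaches 3444 CPM in 1 BPH-1 metastasis-derived library.

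In RWPE-1 there was 1 vector library, so its values were set beside the 4 C-Raf parental libraries without a test. Of 19 members of at least 1 CPM, the vector library lay below the C-Raf range for 12, above it for 2 and inside it for 5. Among 12014 coding genes chosen in the same way the vector library lay below that range for 27.8% and above it for 33.0%. COL17A1 was at 1239 CPM in the vector library and 1573, 2134, 2192 and 2172 CPM in the C-Raf libraries, so it lay on the same side as in BPH-1. COL1A1 was at 7.36 CPM against 8.68, 9.54, 18.7 and 20.1 CPM, below the C-Raf range, where the BPH-1 vector was above it. COL5A1 was at 3.06 CPM, inside the C-Raf range of 2.9, 10.4, 33 and 29.6 CPM. COL18A1 was at 30.9 CPM, above the C-Raf libraries at 18.9, 16.5, 12.6 and 11.1 CPM. The first C-Raf library, from the table of the vector library, was the nearest C-Raf value to the vector for COL17A1, COL1A1, COL5A1 and COL18A1, and the other 3 came from the second table.

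Metastasis-derived BPH-1 lines were then compared with their C-Raf parental line, from the 3 deep libraries R069, R072 and R075 titled thymus (the 3 shallow ones left out). Of 26 members tested, 12 rose, 1 fell and 13 did not pass, and the median log2 fold change was 1.22 for members against 0.075 for all genes. Among all 13455 genes 37.7% passed, 21.0% higher and 16.8% lower. Chains of the fibrillar, FACIT and anchoring fibril classes made up most of those that rose, and the collagens took 0.3399, 0.3674 and 0.3364% of coding counts in the metastasis-derived lines against 0.2391 to 0.2486% in the parental line. These 3 lines differed far more among themselves than parental replicates did (biological coefficient of variation 35.3%), and RN7SL1 took 13.11, 30.28 and 4.6% of their counts. How far that unequal content bears on the collagen values was not tested. Of the 26 members, 21 had a mean of at least 10 counts a library in both groups, of which 9 rose, 1 fell and 11 did not pass. COL6A6, COL10A1, COL22A1 and COL21A1 reached it in the metastasis-derived group only and COL9A2 in the parental group only. Leaving out any 1 of the 3 C-Raf parental libraries left 5 members called with 14.1 to 15.1% of genes called. Those were COL1A1 and COL5A3 and the scarce COL10A1, COL22A1 and COL6A6. The log2 fold change of COL7A1 stayed at 2.92 to 2.97 while its call was lost. Calls thus depend on the number of parental replicates, which may be technical. A fit of all 6 metastasis-derived libraries called 9 members and 15.6% of genes. COL5A1, COL4A6, COL8A2, COL12A1, COL16A1 and COL7A1 lost their calls there, so some of these 9 were not called in the main fit.

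COL1A1 gave the steadiest fibrillar change, at 10.5, 10.7 and 10.4 CPM in the parental libraries and 52.1, 67.6 and 46.5 CPM in R069, R072 and R075 titled thymus. Its log2 fold change was 2.45 ± 0.20 (adjusted p = 0.00151), and no metastasis-derived library overlapped the parental range. The shallow libraries R071, R074 and R075 titled bone held 235, 40 and 40.4 CPM. A single count is worth 8 CPM in R074 and 20.2 CPM in R075 titled bone, so their values rest on few counts and add little. COL5A3, a type V chain, was at 0.904, 0.935 and 0.788 CPM and then 17.7, 22.6 and 10.3 CPM (4.31 ± 0.38, adjusted p = 0.00152). COL5A1 was at 14.7, 13.3 and 14.6 CPM and then 49.5, 212 and 46.6 CPM (2.91 ± 0.66, adjusted p = 0.0164, 2.02 and 0.102 with all 6 libraries, 0.0665 to 0.0688 without any 1 parental library). R072 was thus far above the other lines for COL5A1, and all 3 were above the parental range. COL5A2 was at 0.935, 0.997 and 0.788 CPM and then 4.18, 2.44 and 2.73 CPM (1.83 ± 0.33, adjusted p = 0.00821, 0.0524 to 0.0586 without any 1 parental library). COL27A1, at 75.3, 231 and 63.5 CPM against 59.4 to 65.8 CPM, did not pass (1.05 ± 0.51, adjusted p = 0.151).

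COL7A1, whose upstream stretch is printed above, was at 224, 211 and 206 CPM in parental and 874, 3444 and 474 CPM in metastasis-derived R069, R072 and R075 titled thymus (log2 fold change 2.97 ± 0.76, adjusted p = 0.0247). The lowest metastasis-derived library exceeded the highest parental one, while the order of the 3 lines was also that of their RN7SL1 share. COL1A1, COL5A1, COL5A3, COL16A1 and COL6A6 had that order too. COL12A1 and COL8A1 had the reverse order, and the other members called had neither. The COL7A1 call was lost with all 6 libraries (2.07, adjusted p = 0.129) and without any 1 parental library (0.089 to 0.0906). COL12A1 was at 100.1, 93 and 102 CPM and then 261, 133 and 429.7 CPM (1.53 ± 0.41, adjusted p = 0.0281), with R075 titled thymus highest. COL16A1, another FACIT chain, was at 22.1, 20.5 and 20.3 CPM and then 80.7, 152 and 35 CPM (2.15 ± 0.52, adjusted p = 0.0201). COL12A1 and COL16A1 both lost their calls with all 6 libraries (0.67, adjusted p = 0.589, and 1.23, adjusted p = 0.341), without R069 (0.0724 and 0.0559) and without any 1 parental library (0.0978 to 0.107 and 0.0758 to 0.0777).

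The scarce members COL22A1, COL6A6 and COL10A1 were tested only through their counts in the metastasis-derived group, so their values are a description. COL22A1, a FACIT chain of tissue junctions, was at 0.0623, 0.187 and 0.103 CPM in parental and 1.73, 2.92 and 2.95 CPM in metastasis-derived libraries (log2 fold change 4.42 ± 0.51, a value that depends on the prior count). COL6A6, a type VI chain, had 0 counts in all 3 parental libraries and 2.77, 4.02 and 1.21 CPM in the metastasis-derived ones, at least 83-fold higher against a floor of 3 counts over the parental group. COL10A1, the short-chain collagen of hypertrophic cartilage, had 2 counts in the parental libraries and 120 in the metastasis-derived ones, 2.19, 0.709 and 1.56 CPM, a ratio of 78.3 with an exact 95% counting interval of 21.2 to 654. Each of the 3 deep lines was above every parental library for all of them. Their levels stayed low beside COL7A1 or COL17A1.

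Of 5 type IV chains tested, 1 rose and 4 did not pass. COL4A6 rose from 28.1, 28.4 and 28.7 CPM to 42.9, 62.4 and 46.4 CPM (log2 fold change 0.88 ± 0.20, adjusted p = 0.0153, but 0.15 and 0.905 with all 6 libraries and 0.0784 to 0.083 without any 1 parental library). COL4A5, its neighbor 346 bases away, was at 30.6, 29.4 and 31.4 CPM and then 48.8, 110 and 39.1 CPM (1.17 ± 0.41, adjusted p = 0.0629). COL4A2 was at 316, 298 and 300.0 CPM and then 185, 114 and 223 CPM (-0.76 ± 0.27, adjusted p = 0.0641), and COL4A1 was at 115, 110.5 and 115 CPM and then 98.9, 51.3 and 153 CPM (-0.12 ± 0.37, adjusted p = 0.813). The COL4A2 libraries did not overlap although the test did not pass, and those of COL4A1 did. COL8A1 was the 1 member of 26 that fell, from 10.5, 11.7 and 11.4 CPM to 1.18, 0.0788 and 3.44 CPM (-2.73 ± 0.86, adjusted p = 0.0478, 0.148 without R069 and 0.114 to 0.12 without any 1 parental library), and COL8A2 went from 0.779, 0.748 and 0.446 CPM to 3.23, 3.15 and 0.994 CPM (1.94 ± 0.55, adjusted p = 0.0332, lost at 0.0542 with all 6 libraries, at 0.0502 without R072, and without R069 or any 1 parental library).

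COL17A1, the highest member, did not pass, at 1159, 1100.0 and 1112 CPM in parental and 1184, 1080.0 and 1658 CPM in metastasis-derived libraries (log2 fold change 0.27 ± 0.23, adjusted p = 0.395). COL13A1, at 9.85, 9.75 and 10.1 CPM against 6.69, 14.7 and 3.9 CPM, COL18A1, at 85.8, 82 and 77.7 CPM against 106, 211 and 52.7 CPM, and COL6A1, at 7.51, 7.2 and 6.27 CPM against 15.5, 22.5 and 7.77 CPM, did not pass either (adjusted p = 0.0578 for COL6A1). For COL13A1 and COL18A1 the metastasis-derived values lay on both sides of the parental range, and for COL6A1 all were above it.

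The enzymes and receptors were counted from the same lists in BPH-1 metastasis-derived lines, beside the 21.0% of all genes higher and 16.8% lower. Of 20 chaperones and modifying enzymes tested 2 rose, 6 fell and 12 did not pass (median log2 fold change -0.52). Of 11 processing enzymes 2 rose, 4 fell and 5 did not pass (-0.45), and of 7 receptors 3 rose and 4 did not pass (1.44). SERPINH1, the collagen chaperone HSP47, was at 275, 271 and 268 CPM in parental and 73.8, 49.3 and 144 CPM in metastasis-derived libraries (-1.56 ± 0.39, adjusted p = 0.0225). PXDN, the peroxidase that cross-links type IV collagen, was at 202, 195 and 199 CPM and then 21.4, 50.8 and 34.5 CPM (-2.43 ± 0.34, adjusted p = 0.00388). MRC2 was at 8.29, 7.17 and 7.67 CPM and then 34.8, 64.6 and 17.6 CPM (2.40 ± 0.48, adjusted p = 0.011). For SERPINH1, PXDN and MRC2 the groups did not overlap.

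Markers of other cells were set beside these values. Of 12 fibroblast markers 6 were tested, of which FAP and PRRX1 rose, FBLN1 and TWIST2 fell and 2 did not pass. The 12 summed to 70.59 to 76.96 CPM in parental and 25.14 to 67.44 CPM in deep metastasis-derived libraries, with DCN at 0, 0 and 0.0355 CPM in R069, R072 and R075 titled thymus and POSTN at 0. PRRX1 was at 1.34, 0.709 and 2.91 CPM there, and 8 to 11 of the 12 markers had counts against 6 to 7 in the parental line. Osteoblast and cartilage markers summed to 85.29 to 89.27 CPM in parental and 38.43 to 385.8 CPM in metastasis-derived libraries, with IBSP at 0 in all libraries. The endothelial gene VWF was at 0.655 to 0.754 CPM in parental libraries and 9.53, 38.4 and 2.02 CPM in R069, R072 and R075 titled thymus (log2 fold change 4.60 ± 1.08, adjusted p = 0.0187), while CDH5, the other endothelial gene tested, was lower (-1.56 ± 0.35, adjusted p = 0.0161). Epithelial markers summed to 5928 to 6089 CPM in parental and 11650 to 15640 CPM in deep metastasis-derived libraries, and of the 8 tested KRT5, KRT14 and KRT17 rose, EPCAM, KRT8 and KRT18 fell and 2 did not pass. The part of these marker differences in the collagen values was not tested.

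**Figure D3:**
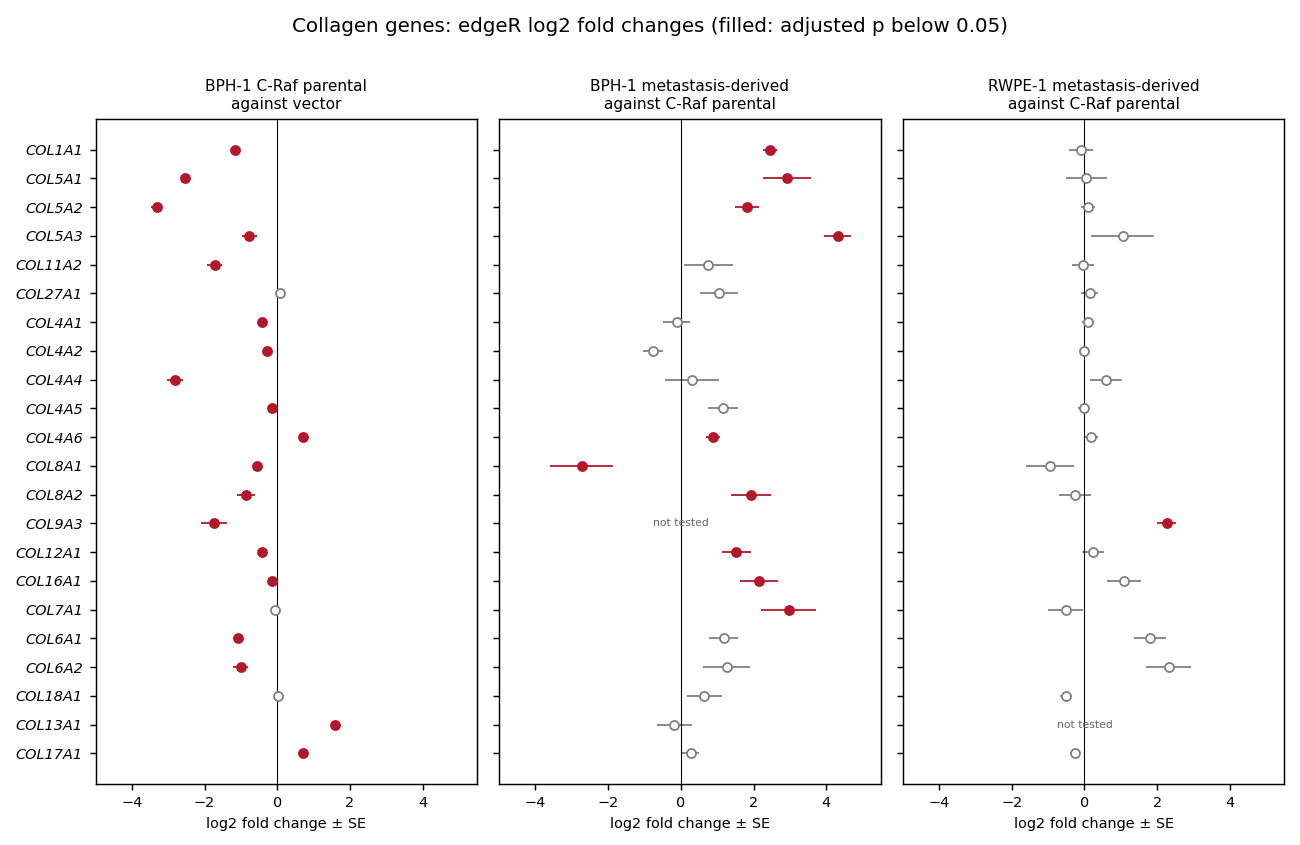
Log2 fold change (horizontal axis, ± SE) of the named collagen genes (rows, without COL6A6, COL10A1 and COL22A1, whose fitted values depend on the prior count) in the within-line comparisons, with filled points at adjusted p below 0.05 in edgeR's test. Most members lie left of 0 for BPH-1 C-Raf against vector and right of 0 for BPH-1 metastasis-derived against C-Raf, and for RWPE-1 the filled point is COL9A3 at 2.26.

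In RWPE-1 the same question gave few changes. The labels do not state whether lines such as LN1A and LN1B came from the same mouse or tumor. The test took each line as separate. Of 25 members tested between 7 metastasis-derived and 4 C-Raf parental libraries, 1 rose, and among all 13186 genes tested 13 passed (0.0986%, with 0.0758% higher and 0.0228% lower). At an unadjusted p below 0.05 there were 5 members and 1037 genes. The member medians were 0.14 on the log2 scale against 0.009 for all genes. The member that passed was COL9A3, at 0.674, 0.633, 1.18 and 1.38 CPM in the parental libraries and 3.79 to 6.65 CPM (median 4.24) in the metastasis-derived ones. All 7 metastasis-derived libraries exceeded all 4 parental ones, by a log2 fold change of 2.26 ± 0.27 (adjusted p = 0.00786). Within the first table the mean difference was 2.55 (1 parental and 3 metastasis-derived libraries) and within the second 2.18 (3 and 4 libraries), without overlap in either, although a fit of the second table alone gave adjusted p = 0.196. Per kilobase COL9A3 stayed low, at 0.782 to 1.37 CPM per kb in metastasis-derived libraries. The exons of COL9A3 overlap those of TCFL5 on the other strand over 45 bases, 0.93% of its exon length, and the strand setting of the counting is not given in the sources used here.

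None of the 3 type VI chains tested in RWPE-1 passed. COL6A1 was at 3.46, 5.39, 12.5 and 11.4 CPM in parental and 14.5 to 47.4 CPM (median 25.6) in metastasis-derived libraries (log2 fold change 1.80 ± 0.45, adjusted p = 0.233). COL6A2 was at 2.5, 3.16, 14.3 and 15.7 CPM and then 13.5 to 97.8 CPM (median 33.8; 2.32 ± 0.62, adjusted p = 0.29). The groups did not overlap for COL6A1 and met at 1 library for COL6A2, the Spine line at 13.5 CPM, and within each table neither chain overlapped between stages (COL6A1 differed by 2.59 and 1.71 and COL6A2 by 3.26 and 2.55 on the log2 scale). The first table held 1 parental library, so a lack of overlap there says little. COL6A3, the third chain, was at 0.141, 0.329, 3.04 and 2.68 CPM in parental and 0.777 to 3.72 CPM in metastasis-derived libraries, which overlapped over both tables and within the second (0.36 ± 0.72, adjusted p = 0.935). COL16A1 was at 6.29, 20.7, 33.6 and 39 CPM and then 23.2 to 75.3 CPM (median 64.7; 1.09 ± 0.46, adjusted p = 0.582). Summed over the class, type VI chains were at 6.13 to 30 CPM in parental and 29.1 to 149 CPM in metastasis-derived libraries. For all of these chains the single parental library of the first table was the lowest.

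The abundant members showed no shift that passed. COL17A1 was at 1573, 2134, 2192 and 2172 CPM in parental and 1312 to 2109 CPM (median 1633) in metastasis-derived libraries (-0.26 ± 0.15, adjusted p = 0.712), with mean differences of -0.17 and -0.20 on the log2 scale within the tables, in each of which every metastasis-derived library lay below the parental ones. In the first table that was 1 parental library only. COL7A1 was at 172, 305, 509 and 625 CPM and then 128 to 748 CPM (median 216; -0.51 ± 0.48, adjusted p = 0.848). COL4A1 was at 81.4, 117, 155 and 152 CPM and then 113 to 159.5 CPM (median 131; 0.09 ± 0.16, adjusted p = 0.926). Over both tables all 3 overlapped between stages. COL1A1 was at 8.68, 9.54, 18.7 and 20.1 CPM and then 9.83 to 27.9 CPM (median 11.2; -0.09 ± 0.33, adjusted p = 0.969), and COL5A1 at 2.9, 10.4, 33 and 29.6 CPM and then 9.1 to 37.1 CPM (median 16.4; 0.05 ± 0.56, adjusted p = 0.992). COL18A1 was at 18.9, 16.5, 12.6 and 11.1 CPM and then 8.16 to 13.9 CPM (median 9.77; -0.51 ± 0.16, adjusted p = 0.383).

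COL12A1 was at 127, 202, 172 and 140.2 CPM in parental and 108 to 278 CPM (median 161) in metastasis-derived libraries (0.23 ± 0.30, adjusted p = 0.897), and COL27A1, a fibrillar chain of cartilage, at 28.2, 57, 73 and 81.5 CPM and then 52.1 to 82.2 CPM (median 64.7; 0.14 ± 0.23, adjusted p = 0.922). The type IV pair COL4A5 and COL4A6 was at 70.3 to 98.3 and 48.3 to 61.6 CPM in parental libraries and at 58.4 to 121 and 48.9 to 104 CPM in metastasis-derived ones, with adjusted p = 0.986 and 0.878. Bone4 was the highest library for both COL4A5 and COL4A6. COL8A1 and COL8A2 also overlapped, at 0.871 to 7.15 and 1.52 to 6.16 CPM in parental and 0.657 to 5.26 and 1.3 to 7.6 CPM in metastasis-derived libraries.

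Bone5 stood apart for some stromal chains, which were chosen after their values were seen where outside the naming rule (COL3A1 and COL15A1). COL3A1, a fibrillar chain of stroma, was at 20.4 CPM there and at 0 to 0.547 CPM in the other 6 metastasis-derived lines, and COL5A3 was at 5.33 CPM against 0.157 to 0.907 CPM. Bone5 also held COL15A1 at 2.34 CPM, DCN at 6.84 CPM against 0.113 to 4.95 CPM elsewhere, and POSTN at 2.26 CPM against at most 0.196 CPM. Type VI chains did not peak in Bone5, with a sum of 109 CPM there and 149 CPM in Spine2. PRRX1 was at 0 in all RWPE-1 libraries, and fibroblast markers summed to 26.9 to 45.14 CPM in metastasis-derived and 30.58 to 43.14 CPM in parental libraries, ranges that overlapped. Bone5 held the 45.14 CPM, beside 42.85 CPM in Bone4 and 39.89 CPM in Spine2. Among the chaperones and modifying enzymes (20 tested), processing enzymes (13) and receptors (6), edgeR's adjusted test called 0 in RWPE-1, against 2, 5 and 1 at an unadjusted p below 0.05.

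**Figure D4:**
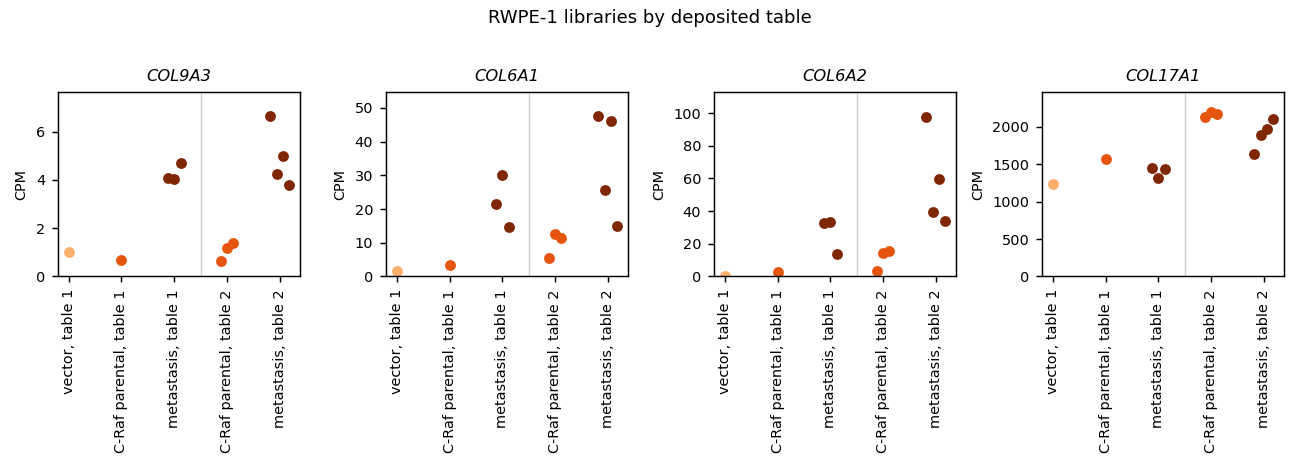
CPM (vertical axis) of COL9A3, COL6A1, COL6A2 and COL17A1 in the RWPE-1 libraries, ordered by deposited table and stage (horizontal axis), 1 point per library. COL9A3 is higher in the metastasis-derived libraries of both tables (3.79 to 6.65 CPM against 0.633 to 1.38 CPM), while COL17A1 lies between 1312 and 2192 CPM.

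The difference between the cell lines in the metastasis effect was tested as an interaction. Among 31 members tested, 11 had a larger effect in BPH-1, 2 a smaller one and 18 did not pass, against 44.5% of all 14271 genes called (23.5% higher and 21.0% lower), with a median of 1.07 for members and 0.053 for all genes. The effect in BPH-1 exceeded that in RWPE-1 by 2.49 ± 0.48 on the log2 scale for COL1A1 (adjusted p = 0.000678), by 3.41 ± 0.89 for COL7A1 (adjusted p = 0.00543) and by 1.70 ± 0.35 for COL5A2 (adjusted p = 0.00105). COL9A3 went the other way, by -2.88 ± 0.68 (adjusted p = 0.00275), and it was at 0.0326, 0.315 and 0.177 CPM in BPH-1 metastasis-derived lines and 0.312, 0.249 and 0.137 CPM in their parental line. The BPH-1 parental libraries held 7.33 counts of COL9A3 on average, and it did not pass the filter between these BPH-1 groups. It entered the interaction test through its RWPE-1 counts only. COL4A2 also differed, by -0.80 ± 0.28 (adjusted p = 0.0282). COL6A1 did not differ between lines by the test (-0.69 ± 0.66, adjusted p = 0.418), nor did COL17A1 (0.48 ± 0.27, adjusted p = 0.151). COL1A1, COL7A1, COL5A2 and COL9A3 kept their calls without any 1 of the 17 libraries. COL4A2 lost its call without RWPE-1 C-Raf replicate 1 (0.0508) or 2 (0.0501) or BPH-1 C-Raf replicate 1 (0.0563). Without R072 the differences of COL5A1, COL5A3, COL4A5, COL8A2 and COL18A1 no longer passed, at 1.73, 2.96, 0.57, 1.96 and 0.48 on the log2 scale. Other single libraries decided these calls too, since of the 17 the call was lost without 12 for COL18A1, 11 for COL5A3, 7 for COL8A2, 4 for COL5A1 and 2 for COL4A5. COL18A1 also lost it with no filter on low counts (0.0552), with all genes of the tables (0.0712) and with a term for table (0.0518). COL6A6, COL10A1 and COL22A1 are 3 of the 11 and were tested only through BPH-1 metastasis-derived counts. Without BPH-1 C-Raf replicate 1 or 2, 8 members were called, and these replicates may be technical.

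Between cell lines at the C-Raf parental stage, 12 of 24 members passed, 8 higher and 4 lower in RWPE-1, against 73.8% of 13529 genes (37.5% higher and 36.3% lower). Of the 24, 21 had a mean of at least 10 counts a library in both groups, of which 6 were higher, 3 lower and 12 did not pass, while COL4A4, COL9A3 and COL6A3 reached it in 1 group only. Cell line, medium and table cannot be told apart here. COL17A1 was at 1573 to 2192 CPM in RWPE-1 and 1100.0 to 1159 CPM in BPH-1 (log2 fold change 0.84 ± 0.14, adjusted p = 0.000968). COL18A1 was at 11.1 to 18.9 CPM against 77.7 to 85.8 CPM (-2.48 ± 0.17, adjusted p = 8.55e-06), and COL13A1 at 0.169 to 0.345 CPM against 9.75 to 10.1 CPM (-5.21 ± 0.21, adjusted p = 9.32e-07). These ranges did not overlap. Both chains of the head-to-head pair were higher in RWPE-1, COL4A5 at 70.3 to 98.3 CPM against 29.4 to 31.4 CPM (1.47 ± 0.12, adjusted p = 2.04e-05) and COL4A6 at 48.3 to 61.6 CPM against 28.1 to 28.7 CPM (0.99 ± 0.09, adjusted p = 4.2e-05). COL4A2 was lower in RWPE-1, at 148 to 249.7 CPM against 298 to 316 CPM (-0.54 ± 0.18, adjusted p = 0.0258, 0.0608 to 0.0776 without RWPE-1 C-Raf replicate 2 or any 1 BPH-1 C-Raf replicate), and COL4A1 at 81.4 to 155 CPM against 110.5 to 115 CPM did not pass (0.15 ± 0.21, adjusted p = 0.539). COL6A2 was higher at 2.5 to 15.7 CPM against 0.779 to 1.22 CPM (3.24 ± 0.79, adjusted p = 0.00652), as were COL12A1 at 127 to 202 CPM against 93 to 102 CPM (0.70 ± 0.16, adjusted p = 0.00456) and COL8A2 at 1.52 to 6.16 CPM against 0.446 to 0.779 CPM (2.73 ± 0.52, adjusted p = 0.00192). COL9A3 was at 0.633 to 1.38 CPM in RWPE-1 and 0.137 to 0.312 CPM in BPH-1 (2.02 ± 0.43), the BPH-1 libraries being under 10 counts on average. COL7A1, at 172 to 625 CPM against 206 to 224 CPM, did not pass (0.91 ± 0.40, adjusted p = 0.0705).

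Neighboring members gave values that could be read as pairs. COL4A1 (chromosome 13, 110148963 to 110307233, minus strand) and COL4A2 (110305812 to 110513209, plus strand) overlap by 1422 bases in the annotation, and both fell in BPH-1 with C-Raf. COL4A6 (chromosome X, 108155607 to 108439497, minus strand) and COL4A5 (108439844 to 108697545, plus strand) start 346 bases apart, yet COL4A6 rose and COL4A5 fell in that comparison. COL6A1 (chromosome 21, 45981737 to 46005050) and COL6A2 (46098097 to 46132849), both on the plus strand and 93046 bases apart, fell together there. Exons of 12 members overlap another gene, 9 of them one on the opposite strand, and the largest such share was in COL18A1, where 1401 bases (16.4%) lie over SLC19A1, so reads of that stretch cannot be assigned without strand.

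Pooled over cell lines with a term for the line, few members passed. For C-Raf parental against vector 4 of 39 passed (COL17A1 and COL13A1 higher, COL5A2 and COL4A3 lower) against 0.814% of 15237 genes (0.420% higher and 0.394% lower). COL5A2 had a log2 fold change of -2.27 ± 0.39 (adjusted p = 0.00686), COL13A1 of 2.0 ± 0.39 (adjusted p = 0.0158) and COL17A1 of 0.77 ± 0.18 (adjusted p = 0.0448, a call kept in 9 of 28 alternatives and lost without any 1 BPH-1 vector library, at 0.144 to 0.163). The COL13A1 call was also lost without any 1 BPH-1 vector library, at 0.0605 to 0.0764. COL4A3 stayed below 1 CPM in all deep libraries and passed the filter on low counts in no within-line comparison. In BPH-1 it was at 0.153 to 0.364 CPM in vector and 0 in C-Raf parental libraries. Its calls in the pooled fits are therefore a description. For metastasis-derived against C-Raf parental 2 of 39 passed, both higher, against 2.53% of genes (1.78% higher and 0.748% lower). COL6A1 had a log2 fold change of 1.63 ± 0.43 (adjusted p = 0.0472, kept without 5 of 21 single libraries and otherwise at 0.0502 to 0.12). The other was COL4A3, at 0.0355 to 0.261 CPM in deep BPH-1 metastasis-derived libraries and 0 in their parental line. The RWPE-1 vector group was 1 library in these fits.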

How the data were processed

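Libraries were made with an mRNA kit. The authors deposited RSEM expected counts per gene, and the submitters' processing notes name cutadapt, FastQC, STAR, RSEM and hg38, while the annotation is not given in the sources used here. Values are thus estimated counts, not whole numbers, and reads shared by near-identical genes were split by the authors' tool. From the deposited estimated counts, protein-coding genes of GENCODE 29 were kept (36628 of 60448 symbols matched directly and 917 by an older name), rounded and tested with edgeR 4.0.16 (TMM, filterByExpr, quasi-likelihood, Benjamini-Hochberg, threshold 0.05) in R 4.3.3 after a test on simulated data. CPM were TMM-scaled, with a prior count of 2 for log2 values. Groups came from the sample labels. The share of all genes without overlap between groups was counted for the RWPE-1 vector library only. Elsewhere a lack of overlap describes the member and has no such background. Fits used libraries of at least 1000000 coding counts. DESeq2 1.42.0, ComBat-seq (sva 3.50.0), other filters, RLE scaling, all genes, terms for table and leaving out libraries were alternatives. Genes were named if a group mean reached 10 CPM, or if called within a line at 1 CPM, and from the enzyme and receptor lists the largest changes. COL1A2, COL3A1, COL4A3 and COL15A1 were added after their values were seen. Members and lists were chosen with earlier results of these data known. Intervals and floors cover counting error only. One item of the series is not reported here.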

Additional observations from a re-analysis of the deposited data

Results flagged for a closer look

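Of 38 sets of 4 or 7 RWPE-1 libraries examined for a library far from the rest, 3 gave one, and chance gives about 1 in 20. BPH-1 sets were not examined in this way. COL1A1 was at 27.9 CPM in RWPE-1 metastasis-derived Bone5, COL4A6 was at 104.0 CPM in Bone4, and COL17A1 was at 1570.0 CPM in RWPE-1 C-Raf parental replicate 1, the library of the other table. Bone5 is the line with raised COL3A1, and its fibroblast marker values stand in the report.

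The metastasis effect differed between the lines for 13 members by the interaction test (log2 effect in BPH-1 minus that in RWPE-1). These were 41.9% of the 31 members tested, against 44.5% of all genes, so nothing is read from their number. The fibrillar chains gave 2.49 for COL1A1, 2.8 for COL5A1, 1.7 for COL5A2 and 3.22 for COL5A3. The type IV chains gave -0.8 for COL4A2 and 1.13 for COL4A5, and the short-chain collagens 2.15 for COL8A2 and 5.8 for COL10A1. The others were COL9A3 at -2.88, COL22A1 at 8.19, COL7A1 at 3.41, COL6A6 at 9.2 and COL18A1 at 1.1. COL9A3 entered this test through its RWPE-1 counts only. The values of COL10A1, COL22A1 and COL6A6 depend on the prior count, since 1 or more groups held few or no counts. BPH-1 stage and table cannot be told apart, so neither can these differences and the table.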

How the results depend on the processing

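Over 61 named effects and 955 values under alternatives, 815 kept direction and call, 140 kept direction and lost the call, and 0 reversed. Alternatives in which a member was no longer tested are not in this tally, which leaves out some for scarce members such as COL10A1 and COL6A6. Leaving out 1 library at a time, the members called ranged from 18 to 21 for BPH-1 C-Raf against vector, 5 to 19 for BPH-1 metastasis-derived (5 without each of the C-Raf replicates 1, 2 and 3), 1 to 1 for RWPE-1 metastasis-derived, 10 to 15 between lines, 8 to 15 for the interaction (8 without BPH-1 C-Raf replicate 1 or 2), 1 to 6 for the pooled C-Raf comparison and 0 to 4 for the pooled metastasis comparison. With DESeq2 the RWPE-1 metastasis comparison called 3 members against 1, and with the second table alone, an alternative chosen after seeing the data, 0. For the pooled C-Raf comparison DESeq2 gave 8, a floor of 10 counts per library 1, all genes 2 and all 6 BPH-1 metastasis-derived libraries 2, against 4. For the pooled metastasis comparison DESeq2 gave 8, no filter 1, the floor of 10 counts 0, all genes 6 and ComBat-seq with DESeq2 6, against 2. The causes were not tested. With the replicate block, BPH-1 C-Raf against vector called 20 members, as without it, and 7682 genes against 7911. Deviations of same-numbered libraries correlated at 0.0459, -0.0458 and -0.0372. With a biological coefficient of variation of 2.43% these deviations are too small to decide whether the numbers pair the samples. Depth limits the 3 shallow libraries, where 1 count is worth 4.13 CPM in R071, 8 CPM in R074 and 20.2 CPM in R075 titled bone.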
